A study of Mus musculus with 6 samples.

Results

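The choroid plexus is the secretory epithelium of the brain ventricles, and 10 genes that mark it were followed here in RNA of the mouse ventral hippocampus. The genes were Ttr, Enpp2, Sostdc1, Folr1, Kl, Prlr, Aqp1, Slc4a5, Clic6 and Otx2, taken by symbol from a table of 56941 gene identifiers, and all 10 were found. Poly(A) RNA was sequenced from 3 mice labelled NEGR1 overexpression and 3 mice labelled control, 1 library each. NEGR1 is a cell adhesion molecule of neuronal membranes, and the study set raised NEGR1 against anxiety- and depression-like behaviour. No source used here says how NEGR1 was raised, what the control mice carried, or which strain, sex and age the animals were. All 6 samples share the tissue label ventral hippocampus.

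The choroid plexus hangs in the ventricles, and that of the lateral ventricle lies along the fimbria, next to the hippocampus. Its epithelial cells make cerebrospinal fluid by moving sodium, bicarbonate, chloride and water from blood to ventricle, and they form the barrier between blood and that fluid. They also load the fluid with carrier proteins, vitamins and signalling molecules. Otx2, a homeobox transcription factor, is needed for this epithelium to form and to be kept. Hippocampal neurons and glia are not the usual source of Ttr, Folr1 or Aqp1, whereas Enpp2 is also made by oligodendrocytes and Kl also by neurons. In RNA of whole tissue, more cells of a type and more RNA per cell cannot be told apart.

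The libraries held 30726110 to 38108394 counts, and 19354 genes passed the filter on low counts. Values are normalised read counts (CPM, a gene's share of the library's counts) after TMM scaling, which corrects for differences in library composition. Negr1 was at 185, 199 and 194 CPM in overexpression replicates 1 to 3, against 181, 168 and 180 CPM in control replicates 1 to 3, with a log2 fold change of 0.13 ± 0.054 (SE) that did not pass (adjusted p = 0.488, edgeR's quasi-likelihood test). Over all genes 9 passed an adjusted p of 0.05, which is 0.0465% of those tested. Neurod6, a transcription factor of forebrain pyramidal neurons and not of the hippocampus alone, was present in every library. It was at 141 to 153 CPM in overexpression and 149 to 196 CPM in control libraries.

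All 10 choroid plexus genes were highest in the same library, overexpression replicate 1, and 0 of 10 passed edgeR's test between the groups, where 0.0465% of all genes did. Unadjusted p-values under 0.05 were found for 2 of the 10, Otx2 and Clic6, and for 9.24% of all genes. Otx2 passed the filter on low counts through its overexpression libraries alone. In that library each of the 10 was at least 2 times the highest of the other 5 libraries. Among all 19354 genes tested, 48 did so (0.248%), and 16.3% had their highest value in that library. The 10 genes summed to 1236 CPM in overexpression replicate 1, to 165 and 204 CPM in overexpression replicates 2 and 3, and to 141, 217 and 167 CPM in control replicates 1 to 3. Apart from that 1 library the groups overlapped on this sum, most of which was Ttr and Enpp2. The sum without Ttr and Enpp2 was 118, 36.7 and 40.6 CPM in overexpression replicates 1 to 3. In control replicates 1 to 3 it was 29.0, 34.6 and 32.3 CPM, and these groups did not overlap. The margin was narrow, at 36.7 against 34.6 CPM. Kl was the largest part of this sum, with 23.6 CPM in overexpression replicate 2 and 23.5 CPM in control replicate 2. Among single genes tested, 7.07% were higher in overexpression without overlap.

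**Figure D1:**
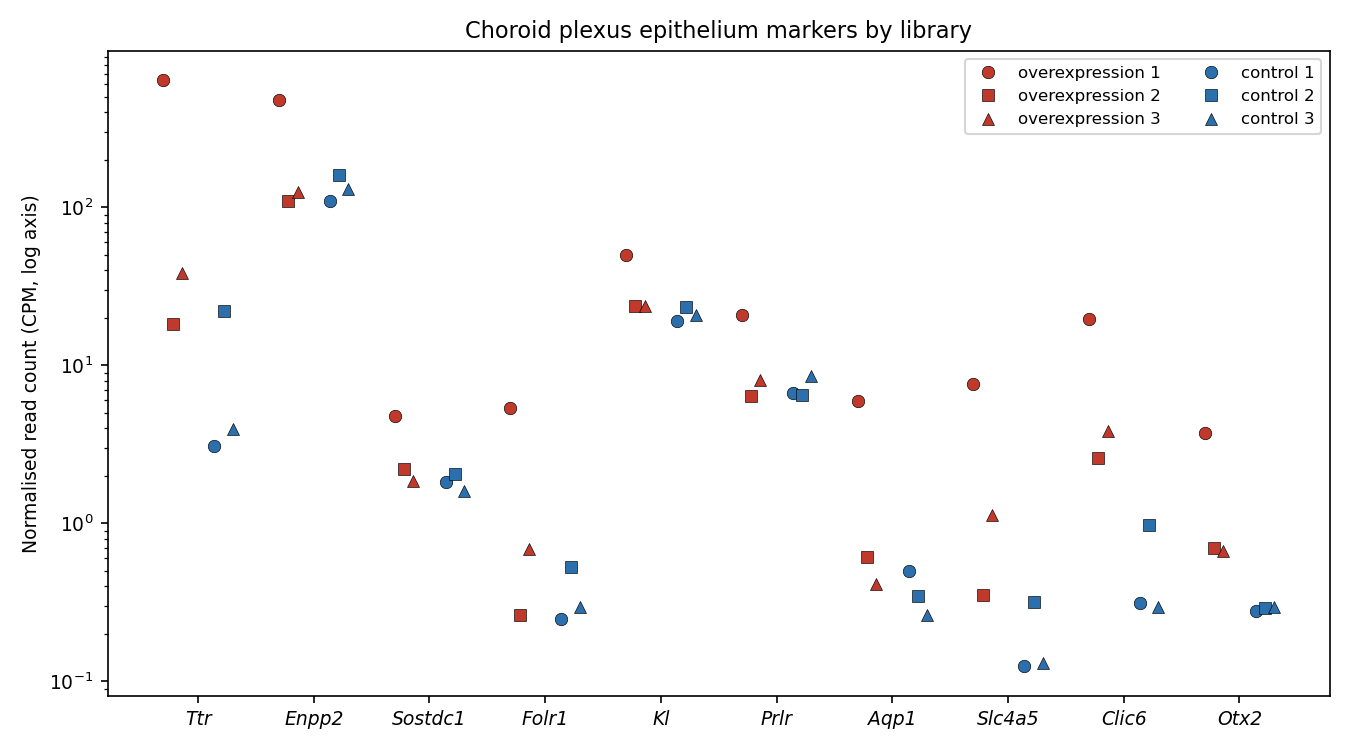
Normalised read count (CPM, log axis) of the 10 choroid plexus genes, 1 symbol per library, with overexpression libraries left (red) and control libraries right (blue). Overexpression replicate 1 (red circle) is the highest for every gene, and for Clic6, Slc4a5, Otx2 and Kl the other 2 overexpression libraries also lie above the 3 control libraries.

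Windows around transcription starts are shown for Otx2, Slc4a5 and Kl, the genes with non-overlapping groups (values below) that the RefSeq promoter table holds. Each runs from 250 bases before to 50 bases after a RefSeq start on build GRCm38.p6, 5′ to 3′ on the gene's strand. The letters searched were TAATCC, the core that OTX-type homeodomains bind, on both strands (GGATTA on the other), with no other motif searched. Matches are in capitals.
Otx2, chr14:48665060-48665359, minus strand: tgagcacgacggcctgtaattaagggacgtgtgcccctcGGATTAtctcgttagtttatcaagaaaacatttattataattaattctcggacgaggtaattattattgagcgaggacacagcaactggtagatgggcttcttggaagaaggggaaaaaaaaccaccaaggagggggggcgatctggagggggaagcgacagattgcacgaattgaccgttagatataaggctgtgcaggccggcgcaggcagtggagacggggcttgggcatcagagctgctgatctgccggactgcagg
Slc4a5, chr6:83237125-83237424, plus strand: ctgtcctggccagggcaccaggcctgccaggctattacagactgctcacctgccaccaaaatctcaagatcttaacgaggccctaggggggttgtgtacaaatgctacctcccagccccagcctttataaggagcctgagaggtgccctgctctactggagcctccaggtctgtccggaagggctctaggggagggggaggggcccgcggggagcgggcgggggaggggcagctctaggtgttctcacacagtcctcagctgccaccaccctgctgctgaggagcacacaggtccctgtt
Kl, chr5:150952357-150952656, plus strand: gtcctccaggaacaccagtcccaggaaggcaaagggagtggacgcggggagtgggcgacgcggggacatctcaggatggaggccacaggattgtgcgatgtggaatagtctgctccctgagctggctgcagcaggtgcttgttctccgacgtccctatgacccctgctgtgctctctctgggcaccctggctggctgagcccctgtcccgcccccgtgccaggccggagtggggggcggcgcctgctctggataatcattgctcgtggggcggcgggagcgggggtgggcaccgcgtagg
Otx2 has 4 windows in the table, and the one printed was picked for its 1 match, 211 bases before the start; the other 3 held 0, as did the Slc4a5 and Kl windows. Over the 5 marker genes in the table, with 10 windows, this was the single window with a match, and 7.06% of all 32851 windows in the table held these letters. A match is a description of letters and not a binding site.

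Ttr and Enpp2 had the highest CPM per kilobase of the 10 markers in overexpression replicate 1. Ttr encodes transthyretin, which carries thyroid hormone and retinol and is the best known product of this epithelium. It had 639, 18.3 and 38.3 CPM in overexpression replicates 1 to 3, against 3.08, 22.1 and 3.93 CPM in control replicates 1 to 3. The groups overlapped, because control replicate 2 lay above overexpression replicate 2. The log2 fold change was 4.53 ± 1.97 (SE; adjusted p = 0.599), and without overexpression replicate 1 it was 1.51 ± 1.10 (adjusted p = 0.699). Among the other 5 libraries Ttr still ranged over 12.4-fold, which in counts is 99 to 1382 reads.

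Enpp2, the gene of autotaxin, a secreted enzyme that makes lysophosphatidic acid, had 479, 110 and 125 CPM in the overexpression libraries, against 109, 160 and 130 CPM in the control libraries. Outside overexpression replicate 1 it varied 1.47-fold, and its highest value there was in a control library. Its log2 fold change was 0.84 ± 0.72 (SE; adjusted p = 0.782) with all libraries and -0.18 ± 0.18 (adjusted p = 0.779) without overexpression replicate 1, so the direction rested on that library. Myelin genes, a list of 10, stood at a mean log2 deviation of -0.096, -0.29 and -0.16 in overexpression replicates 1 to 3 and of -0.086, 0.39 and 0.25 in control replicates 1 to 3. All 10 were tested, 10 were below 1-fold and 0 passed, with 7 at an unadjusted p under 0.05 in edgeR's test (9.24% of all genes). Their part in the Enpp2 values was not tested.

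Sostdc1, which encodes a secreted antagonist of BMP and Wnt signals, had 4.80, 2.22 and 1.86 CPM in overexpression libraries and 1.84, 2.05 and 1.60 CPM in control libraries. Its values outside overexpression replicate 1 lay within 1.38-fold of each other. The log2 fold change was 0.68 ± 0.34 (SE; adjusted p = 0.584), and 0.15 ± 0.23 without that library.

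Of the receptor genes, Folr1 showed the largest ratio of overexpression replicate 1 to the median of the other libraries, at 18.3. It encodes folate receptor alpha, which takes folate through the epithelium into the cerebrospinal fluid. Its counts were 181, 9 and 25 in overexpression replicates 1 to 3 and 8, 20 and 9 in control replicates 1 to 3, which is 5.39, 0.263 and 0.693 CPM against 0.249, 0.531 and 0.295 CPM. Overexpression replicate 2 lay within the range of the controls and replicate 3 above it. With all libraries the log2 fold change was 2.51 ± 1.39 (SE; adjusted p = 0.671), and without overexpression replicate 1 it was 0.40 ± 0.53.

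Kl encodes klotho, the partner of the FGF receptor for FGF23, which is also shed into the fluid. It had 49.8, 23.6 and 23.9 CPM in overexpression libraries, against 18.98, 23.5 and 20.9 CPM in control libraries. The groups did not overlap, but the margin was narrow, with 23.60 CPM in overexpression replicate 2 and 23.51 CPM in control replicate 2. The fold was 1.53 (95% interval 0.764 to 3.07; adjusted p = 0.698), and 1.12 without overexpression replicate 1.

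Prlr, the prolactin receptor, which is abundant in choroid plexus, had 20.9, 6.37 and 8.09 CPM in overexpression libraries and 6.72, 6.54 and 8.52 CPM in control libraries. Without overexpression replicate 1 the fold was 0.999 (adjusted p = 0.999), with all libraries 1.62 (95% interval 0.586 to 4.49; adjusted p = 0.758). The 5 other libraries lay within 1.34-fold of each other.

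Among the transport genes the groups overlapped for Aqp1 and did not for Slc4a5 and Clic6. Aqp1, the water channel of the surface facing the ventricle, had 5.93, 0.613 and 0.416 CPM in overexpression libraries, against 0.498, 0.345 and 0.262 CPM in control libraries. These are 199, 21 and 15 counts against 16, 13 and 8, and the groups overlapped. Its log2 fold change was 2.63 ± 1.38 (SE; adjusted p = 0.652), and 0.47 ± 0.46 without overexpression replicate 1.

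Slc4a5, a sodium bicarbonate cotransporter, had 7.60, 0.351 and 1.14 CPM in overexpression libraries, against 0.124, 0.319 and 0.131 CPM in control libraries. All 3 overexpression libraries lay above all 3 controls, though overexpression replicate 2 and control replicate 2 each held 12 counts. The log2 fold change was 3.91 ± 1.60 (SE; adjusted p = 0.576). Without overexpression replicate 1 it was 1.90 ± 0.59, with an unadjusted p of 0.00649 and an adjusted p of 0.208 in edgeR's test.

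Clic6, a member of the chloride intracellular channel family, showed the clearest separation outside the 1 high library. It had 19.7, 2.60 and 3.85 CPM in overexpression replicates 1 to 3, against 0.311, 0.983 and 0.295 CPM in control replicates 1 to 3, which in counts is 660, 89 and 139 against 10, 37 and 9. Every overexpression library held at least 89 counts and every control library at most 37. With all 6 libraries the log2 fold change was 3.97 ± 1.25 (SE) and did not pass (adjusted p = 0.489). Without overexpression replicate 1 it was 2.55 ± 0.42, a fold of 5.86, and Clic6 passed (adjusted p = 0.0492, edgeR's quasi-likelihood test), as did 0.318% of genes in that fit. It was the single one of the 10 markers to pass there, and over the 6 fits that each left out 1 library its adjusted p ran from 0.0492 to 0.809.

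Otx2 had 3.75, 0.701 and 0.665 CPM in overexpression libraries, against 0.280, 0.292 and 0.295 CPM in control libraries. The counts were 126, 24 and 24 against 9, 11 and 9, so the controls were nearly level while Ttr among the same controls ranged from 99 to 833 counts. At 9 to 11 counts the counting error is large, and whether Otx2 followed Ttr was not tested. The log2 fold change was 2.54 ± 0.86 (SE; adjusted p = 0.473), and 1.23 ± 0.42 without overexpression replicate 1 (unadjusted p = 0.0112, adjusted p = 0.251). All 3 control libraries lay below the level that edgeR's filter asks, so Otx2 was tested through the overexpression libraries alone.

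Across the 10 markers the fold was above 1 for 10 and the median log2 fold change was 2.53, where 50.4% of all genes tested were above 1 and their median was 0.0015. Without overexpression replicate 1 the fold was above 1 for 8 and the median was 0.43. All 3 overexpression libraries lay above all 3 controls for 4 of the 10 markers, Kl, Slc4a5, Clic6 and Otx2, and for 7.07% of all genes tested. For each of these 4 the exact permutation p (two-sided, log2 CPM) was 0.1, which is as low as 3 libraries against 3 can give. Kl and Slc4a5 were apart by narrow margins, at 23.60 against 23.51 CPM and 0.351 against 0.319 CPM in replicates 2 of the groups. The exact p of the other 6 lay between 0.2 for Ttr, Sostdc1 and Aqp1 and 0.8 for Enpp2. DESeq2's Wald test called 2 of the 10, Otx2 (adjusted p = 0.00603) and Clic6 (adjusted p = 0.0208), and 0.553% of all genes, and left the p of Ttr as NA. Otx2 reached the filter's level in the overexpression libraries alone, so its separation and its call are not independent of that filter. Under the replicate block 0 of 10 passed (0.134% of all genes), and with no filter on low counts 0 of 10 (0.853%).

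**Figure D2:**
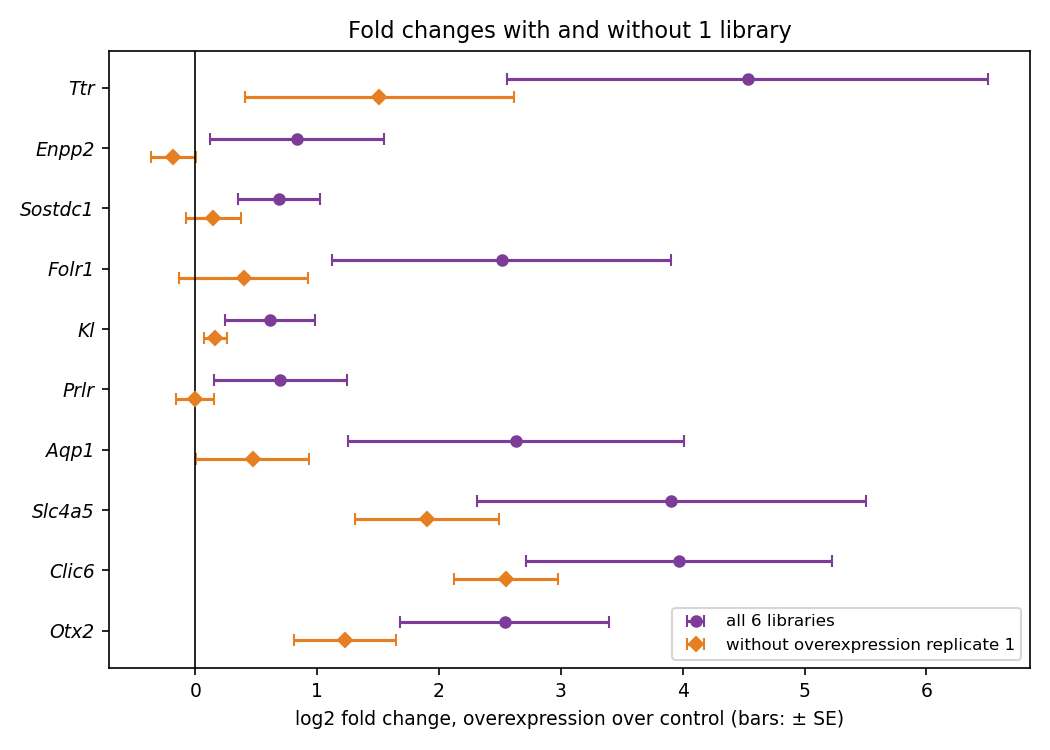
Log2 fold change of overexpression over control for each marker with all 6 libraries (purple circles) and without overexpression replicate 1 (orange diamonds), with bars of ± 1 SE from edgeR. Clic6 stays at 2.55 ± 0.42 without that library, whereas Enpp2 and Prlr move to -0.18 and -0.002.

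The markers fell into 2 ranges by how far overexpression replicate 1 stood above the median of the other 5 libraries. It was 34.9 times that median for Ttr and 23.8 times for Slc4a5, 12.7 times for Otx2, and between these for Clic6, Folr1 and Aqp1. For Enpp2 it was 3.83 times, for Prlr 3.10 times, for Sostdc1 2.58 times and for Kl 2.12 times. In absolute level, the gap in CPM was widest for Ttr, at 621 CPM, then Enpp2 at 354 CPM and Kl at 26.2 CPM, and narrowest for Sostdc1 at 2.94 CPM.

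Levels were compared between genes per kilobase of exon. In overexpression replicate 1 Ttr stood at 539 CPM per kb, followed by Enpp2 at 82.9, Kl at 5.33, Clic6 at 5.02, Sostdc1 at 2.69, Folr1 at 2.35, Aqp1 at 2.26, Prlr at 1.36, Slc4a5 at 1.31 and Otx2 at 0.889 CPM per kb. By the median of the other 5 libraries Enpp2 was first, at 21.7 CPM per kb, ahead of Ttr at 15.4, Kl at 2.52, Sostdc1 at 1.04, Prlr at 0.438 and Clic6 at 0.251 CPM per kb. Aqp1, Folr1, Otx2 and Slc4a5 came last, between 0.158 and 0.0550 CPM per kb. Clic6 thus stood 4th in overexpression replicate 1 and 6th in the median of the others.

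The proportion of Clic6 to Ttr was not the same in every library. Of the counts of both genes together, Clic6 made up 2.98% in overexpression replicate 1 (exact Clopper-Pearson 95% interval 2.76 to 3.22%), 12.4% in replicate 2 (10.1 to 15.1%) and 9.14% in replicate 3 (7.74 to 10.7%). In control replicates 1 to 3 it made up 9.17% (4.49 to 16.2%), 4.25% (3.01 to 5.81%) and 6.98% (3.24 to 12.8%). The intervals cover counting error only. Overexpression replicate 2 and control replicate 2 had similar Ttr, at 18.3 and 22.1 CPM, and their Clic6 was 2.60 and 0.983 CPM.

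**Figure D3:**
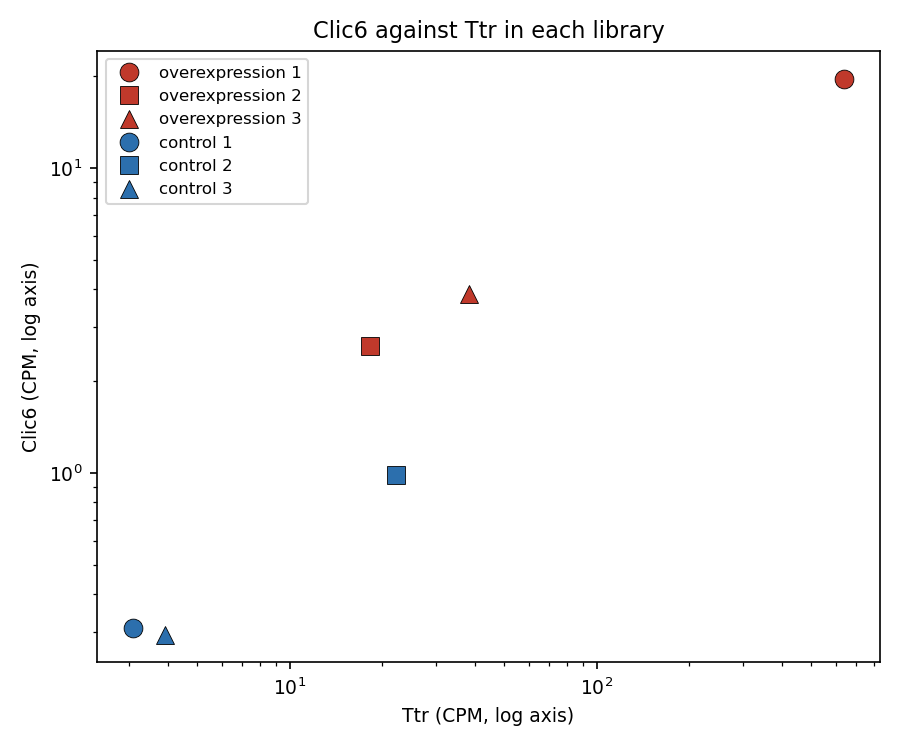
Clic6 against Ttr in each of the 6 libraries, both in CPM on log axes, overexpression in red and control in blue. Overexpression replicate 2 and control replicate 2 sit at nearly the same Ttr, at 18.3 and 22.1 CPM, and differ in Clic6, at 2.60 and 0.983 CPM.

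A wider set of 52 genes known from the choroid plexus, none of them among the 10, showed the same library apart. Of 46 that were tested, 41 had a fold above 1 and the median log2 fold change was 0.48, while 0 passed in edgeR's test, 10 had an unadjusted p under 0.05 (9.24% of all genes), and DESeq2 called 2 (0.553% of all genes). Overexpression replicate 1 was the highest library for 38 and at least 2 times the next for 18. Together with the 10 markers these made 28 of the 48 tested genes that stood out so far in that library. Without it 33 were above 1, the median was 0.13 and 0 passed. Groups did not overlap, in the higher direction, for 11 of the 46, where 7.07% of all genes did so.

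Within that set the junction and cytoskeleton genes had 7 of 8 above 1 and a median of 0.81 on the log2 scale. Without overexpression replicate 1 that median was 0.15. Cldn2, a claudin that lets cations pass between the cells, was at 8.70, 0.526 and 1.30 CPM in overexpression libraries, against 0.529, 1.22 and 0.393 CPM in control libraries (adjusted p = 0.689). Its groups overlapped, as did those of Rdx, Ezr, Cldn1 and Cdhr4, also among the highest of this list. The log2 fold changes of these last were -0.018, 0.082, 0.74 and 0.25. Perp, at 0.95, was higher without overlap, as were 7.07% of all genes. Genes of secreted and membrane proteins had 18 of 18 above 1 and a median of 0.63. Ace, the angiotensin converting enzyme, was at 40.2, 15.9 and 15.5 CPM, against 14.0, 12.6 and 12.9 CPM (adjusted p = 0.671), and Igfbp2, a binding protein of insulin-like growth factors, at 36.7, 24.6 and 21.3 CPM, against 21.3, 16.7 and 15.9 CPM (adjusted p = 0.536). For both, every overexpression library lay above every control library, as for 7.07% of all genes. The margin for Igfbp2 was narrow, with 21.34 CPM in overexpression replicate 3 and 21.31 CPM in control replicate 1. Of the other highest genes of this list, Cab39l was also higher without overlap, and the groups overlapped for Htr2c, Vat1l and Spint2.

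Transport genes had 15 of 18 above 1 and a median of 0.23. Slc4a10, a sodium bicarbonate transporter that neurons also make, was at 328, 301 and 329 CPM in overexpression libraries and 280, 299 and 293 CPM in control libraries (adjusted p = 0.476). Trpm3, an ion channel gene, was at 143, 120 and 123 CPM, against 107, 112 and 110 CPM (adjusted p = 0.34). Also among the highest of this list were Atp2b3, Slc12a2, Car12 and Slc4a2, for which the groups overlapped. Their log2 fold changes were -0.064, -0.032, 0.075 and 0.12. Of the 4 transcription factor genes 2 were tested, Msx1 and Hes1, with log2 fold changes of 0.10 and -0.10. Otx2os1, the antisense neighbour of Otx2, was not tested, with 0.507 CPM in overexpression replicate 1 and at most 0.111 CPM elsewhere. Whether the counting used strand is not known, so reads of this pair may not be told apart.

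The genes whose pattern over the 6 libraries was most like the mean of the 10 markers were Kcne2, Krt18, F5, Cldn2, 1500015O10Rik, Calml4, Mfrp, Col8a1, Rbm47 and Wdr86. Likeness was the root mean square difference between profiles of log2 CPM centred on their own means, over 6 libraries and 17616 candidate genes. It ran from 0.35 for Kcne2 to 0.59 for Wdr86, where the median candidate was at 1.23. Of these 10 genes, 7 were in the choroid plexus set, which held 46 of the 19354 genes tested, and Mfrp, Rbm47 and Wdr86 were in no list. That set was chosen with earlier results of these data known, so the 7 are a description and not a test. Kcne2 and Krt18 lay under 0.5 CPM, the mean asked of candidates, in every library but overexpression replicate 1. Kcne2, a potassium channel subunit, had 4.05, 0.380 and 0.3603 CPM in overexpression libraries, against 0.124, 0.292 and 0.262 CPM in control libraries. Mfrp had 11.3, 0.964 and 1.496 CPM, against 0.996, 0.824 and 0.3603 CPM. Among the 10 markers themselves Otx2 lay nearest to their mean profile, at 0.28, and Ttr farthest, at 1.34.

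Markers of neighbouring tissues and of other cells were read in the same libraries. The ependyma, the ciliated lining of the same ventricles, had 3 of 13 tested genes above 1, a median log2 fold change of -0.24 and 0 past the threshold. Its mean log2 deviation was 0.13, -0.13 and -0.28 in overexpression replicates 1 to 3 and -0.20, 0.50 and -0.026 in control replicates 1 to 3. Control replicate 2 was the highest library for ependymal genes, and also for the myelin list, at 0.39. Among the controls it was the highest for Ttr, Enpp2, Sostdc1, Folr1, Kl, Slc4a5 and Clic6, but not for Aqp1, Prlr or Otx2. Foxj1, the transcription factor of motile cilia, was at 7.78, 6.25 and 6.98 CPM, against 5.66, 9.25 and 5.63 CPM.

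Meningeal and fibroblast genes had 14 of 14 above 1, a median of 0.51 and 0 past the threshold, with 7 at an unadjusted p under 0.05 (9.24% of all genes). Their deviation was 0.48, 0.48 and -0.052 in overexpression replicates 1 to 3, against 0.13, -0.52 and -0.52 in control replicates 1 to 3, so overexpression replicates 1 and 2 were level where their choroid plexus markers differed by 2.56 against -0.22. Endothelial genes had 5 of 9 above 1 with a median of 0.016, pericyte and smooth muscle genes 6 of 8 with a median of 0.14, and border macrophage genes 4 of 6 with a median of 0.37. Hippocampal neuron genes had 6 of 10 above 1 with a median of 0.041 and were lowest in overexpression replicate 1, at -0.18. Thalamus and habenula genes had 9 of 10 above 1 and a median of 0.23, and 0.32 without overexpression replicate 1. Of these, 4 were higher without overlap (7.07% of all genes). An unadjusted p under 0.05 in edgeR's test was found for 3 of them and for 3 of the 6 border macrophage genes (9.24% of all genes). It was found for 0 of the endothelial, pericyte and smooth muscle, and hippocampal neuron genes. In these lists 0 genes passed, and 0 stood at 2 times the other libraries in overexpression replicate 1. Their part in the marker values was not tested.

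**Figure D4:**
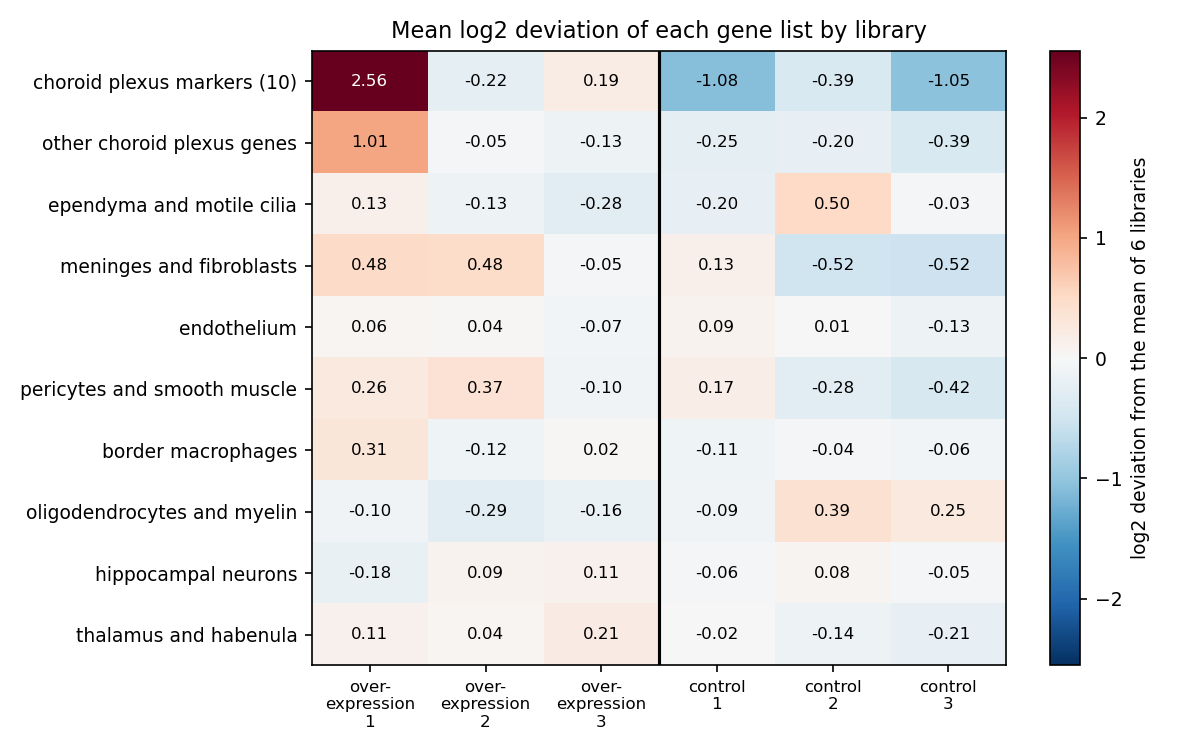
Mean log2 deviation of each gene list from its mean over the 6 libraries, with overexpression libraries left and control libraries right; red is higher, blue lower. The 10 choroid plexus markers stand at 2.56 in overexpression replicate 1 and the other choroid plexus genes at 1.01, while the ependymal list peaks in control replicate 2 at 0.50.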

How the data were processed

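Per the labels' protocols, Trizol was used to extract total RNA, poly(A) RNA was selected and strand-specific dUTP libraries were made. The authors deposited raw counts for each Ensembl identifier in 1 table with a column per mouse. The submitters' processing notes name featureCounts 2.0.3, STAR 2.7.10 and Trimmomatic 0.36, and both GRCm39 and mm10, with no role for any. Build, annotation and strand setting behind the counts are therefore unknown; for an antisense pair such as Otx2 and Otx2os1 this decides how reads were assigned.

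Groups came from the labels. Counts were tested with edgeR 4.0.16's quasi-likelihood test (robust, R 4.3.3) with group as its single term, TMM factors and edgeR's own filter for low counts. Benjamini-Hochberg adjustment ran over every tested gene, with a threshold of 0.05, and SEs came from the F statistic. DESeq2 1.42.0, limma 3.58.1 (voom with sample weights), other scaling, other filters, a replicate block and leaving out each library were alternatives. The test was tested on simulated data. Symbols came from a table of gene identifiers; 51948 of 56941 identifiers had one, and 1 list symbol was matched through a RefSeq synonym (Ecrg4, listed as 1500015O10Rik). Exon lengths came from GENCODE M21, which may differ from the annotation counted on. Profiles for deviations and likeness used log2 CPM with a prior count of 2, and likeness was taken over genes with a mean of at least 0.5 CPM.

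All 10 markers are named; other genes were named by level (the 6 or 3 highest of a list were candidates) or by likeness, and Kcne2, Mfrp, Otx2os1 and Foxj1 values illustrate those. The members and lists were chosen with earlier results of these data known, so no list was given a test of its own. Per the series' design text each sample is another mouse, and no pair agreed within sampling noise.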

Additional observations from a re-analysis of the deposited data

How the results depend on the processing

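Of the 10 markers, 0 passed with all libraries under edgeR, under DESeq2's size factors (RLE), without a filter, with a filter of 1 CPM in 3 libraries (which kept 6 of the 10), under limma-voom with sample weights and under the replicate block. DESeq2's Wald test called 2 of the 10, and 0 to 1 passed when libraries were left out in turn, the 1 being Clic6 without overexpression replicate 1. The number of genes called was 9 with all libraries, 107 under DESeq2, 304 with no filter, 5 with the stricter filter, 26 under the replicate block and 2 to 63 without single libraries. Leaving out overexpression replicate 1 or 2 gave 63 or 5, and leaving out control replicate 1, 2 or 3 gave 39, 2 or 3. The median log2 fold change of the markers was 2.53, 0.77 with the stricter filter, which dropped 4 markers of low level, 1.55 under limma-voom with sample weights, 2.02 under the replicate block, and 0.43 to 2.97 without single libraries. For the other choroid plexus genes the median was 0.48, and 0.13 without overexpression replicate 1. Of 46 tested, 0 passed with all libraries and 2 under the replicate block (0.134% of all genes). With no filter 52 were tested and 6 passed (0.853% of all genes), each of the 6 being among the 46. Leaving out single libraries gave -0.18 to 1.18 for Enpp2 and -0.0021 to 0.995 for Prlr, with the reversed values without overexpression replicate 1; the cause was not tested. Replicate numbers in the labels are not said to pair the mice, and deviations of same-numbered libraries correlated at 0.020 to 0.048, so the replicate block is given for counts alone: 0 of the 10 markers passed under it. Depth limits Folr1, Aqp1, Slc4a5, Clic6 and Otx2 most, with 4 to 37 counts in control libraries.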
